A study of Mus musculus with 96 samples.

Results

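Phgdh, Psat1, Psph, Shmt1, Shmt2, Mthfd1, Mthfd2, Mthfd1l and Aldh1l2 encode the enzymes that make serine and pass its carbon into the folate cycle, and their expression was described in single EL4 cells with and without a short hairpin RNA (shRNA) against Ctcf. These 9 genes were chosen by symbol, as the enzymes of one pathway, among the 24057 genes of the table. Of them, 8 passed the filter on low values, log2(TPM + 1) above 1 in at least 2 cells, which 11980 genes passed, and Aldh1l2 did not. EL4 is a mouse T-lymphoma line, with the strain labelled C57BL/6. The WT cultures, labelled wild type, carried an shRNA against luciferase (shLuc), and the CTCF-KD cultures one against Ctcf (shCTCF). Both were delivered by viral particles that also encode GFP, so control and knockdown cells share infection. WT1 and CTCF-KD1 formed experiment 1, and WT2 and CTCF-KD2 formed experiment 2, with 24 cells sequenced from each culture. Whether the hairpin of CTCF-KD2 differs from that of CTCF-KD1 is not settled by the sources used here. Each culture was captured on its own microfluidic circuit of the Fluidigm C1 system, so effects of circuit, culture and knockdown cannot be told apart in either experiment.

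Phgdh, Psat1 and Psph act one after the other to build serine from an intermediate of glycolysis. The hydroxymethyltransferases Shmt1 and Shmt2 then split serine into glycine and a one-carbon unit held on folate. The mitochondrial enzymes Shmt2, Mthfd2 and Mthfd1l turn that unit into formate. In the cytosol, Mthfd1 takes up formate for purine and thymidylate synthesis, and Mthfd1 and Shmt1 can also run in the reverse direction. Proliferating T cells and lymphomas are known for a high demand on this pathway, in which ATF4 and MYC are known regulators of several genes.

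Expression is given as TPM, in which reads are divided by gene length and scaled to one total in all cells, so levels of different genes can be set side by side. Replicates are cultures, 2 per condition, and with so few the smallest p of an exact permutation test (two-sided) is 0.33. After 1 cell with 81 detected genes was left out, 95 cells remained, 23 in WT2 and 24 in each of the others. The median number of genes per cell was 4771 in WT1, 4635 in WT2, 6172.5 in CTCF-KD1 and 5656 in CTCF-KD2, and it remained higher in the CTCF-KD cultures (5233 and 5219 against 4145.5 and 3940) when cells were thinned to 80000 reads. The level of every tested enzyme gene is therefore also given in the cells with 5000 to 6000 genes, 7 in WT1, 6 in WT2, 8 in CTCF-KD1 and 13 in CTCF-KD2. Their median number of genes was 5397 in WT1, 5343 in WT2, 5829 in CTCF-KD1 and 5685 in CTCF-KD2. These cells are thus nearer in gene number but not matched. The targeted gene, Ctcf, had a mean of 60.3 TPM in WT1, 37.1 in WT2, 15.96 in CTCF-KD1 and 44.9 in CTCF-KD2. It was thus lower than in the control in experiment 1 and not in experiment 2. The TPM values of Ctcf do not set CTCF-KD2 apart, so in these data every direction given below for that culture rests on its label. The study's own checks of the knockdown, by qPCR and Western blot, are not reported here. All 10 T cell marker genes in the table were expressed (sums of 7979 and 8271 TPM for WT against 6080 and 6690 TPM for CTCF-KD). Of markers of other cells, 1 of 5 for B cells, 2 of 6 for myeloid cells and 2 of 6 for fibroblasts and epithelium had any value, and no list summed to more than 4.13 TPM in a culture.

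By mean TPM, both CTCF-KD cultures lay above both WT cultures for 5 of the 8 tested enzyme genes, Phgdh, Psph, Shmt1, Shmt2 and Mthfd1, against 19.9% of the 11980 genes tested. For 0 of the 8 both lay below, against 16.9% of the genes tested. The largest differences belonged to the 2 cytosolic genes, Shmt1 and Mthfd1. In limma on log2(mean TPM + 1) with Benjamini-Hochberg adjustment over 11980 genes, 0.0% of genes were called higher and 0.0% lower at 0.05, so no enzyme gene passed the test. At an unadjusted p under 0.05, 574 genes were higher and 338 lower, with 3 enzyme genes, Shmt1, Shmt2 and Mthfd1, among the former. The median log2 difference of the 8 genes was 0.82, beside 0.04 over all genes tested.

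The stretches before the RefSeq starts of Shmt1 and Mthfd1 are shown because these genes carry the largest differences. The RefSeq start of Shmt1 lies inside the GENCODE gene, whose own start is farther upstream, so the Shmt1 stretch lies within the gene positions given below. Both are from RefSeq on GRCm38.p6, read 5′ to 3′ on the strand of the gene, without bases that lie in exons of coding genes. Capitals mark GGGCGG or its reverse complement CCGCCC (the GC box), found in 35.7% of 32851 promoter windows of 300 bases and in those of 5 of the 8 enzyme genes with a window.
Shmt1, chr11:60811266-60811466, minus strand: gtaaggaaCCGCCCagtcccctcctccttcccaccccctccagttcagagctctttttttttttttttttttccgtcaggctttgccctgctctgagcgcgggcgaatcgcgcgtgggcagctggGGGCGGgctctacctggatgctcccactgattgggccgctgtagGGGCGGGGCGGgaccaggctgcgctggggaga
Mthfd1, chr12:76254982-76255231, plus strand: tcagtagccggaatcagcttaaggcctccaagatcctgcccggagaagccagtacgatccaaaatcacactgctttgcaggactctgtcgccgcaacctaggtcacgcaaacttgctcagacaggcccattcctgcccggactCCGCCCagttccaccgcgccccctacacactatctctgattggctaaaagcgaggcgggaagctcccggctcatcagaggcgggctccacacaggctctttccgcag
The Shmt1 stretch of 201 bases holds 4 matches, of which the last 2 share a base, and the Mthfd1 stretch of 250 bases holds 1. CACGTG (the E-box, in 7.15% of windows) and TGATGNAA on both strands (the core of the element bound by ATF4 dimers, in 3.97%) were in no window of the 8 genes. These matches describe letters in a window and no binding was measured.

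Mthfd1 encodes the cytosolic trifunctional enzyme that interconverts the folate-bound one-carbon units. On GRCm38 it occupies positions 76255298 to 76319803 of chromosome 12 (plus strand). Mean expression was 19.4 TPM in WT1, 13.97 in WT2, 127 in CTCF-KD1 and 91.2 in CTCF-KD2. The WT1 cells ranged from 0 to 229 TPM with a median of 0, and the WT2 cells from 0 to 154 with a median of 0. The CTCF-KD1 cells ranged from 0 to 469 with a median of 124, and the CTCF-KD2 cells from 0 to 349 with a median of 42.7. Single cells of the conditions thus overlapped, while the culture means did not. The ratio of means was 6.55 in experiment 1 and 6.53 in experiment 2. The log2 difference was 2.64 (SE 0.50, adjusted p = 0.585 from limma), the statistic ranked 12 from the highest of 11980 genes. Mthfd1 was detected in 8 of 24 WT1 cells, 7 of 23 WT2 cells, 20 of 24 CTCF-KD1 cells and 19 of 24 CTCF-KD2 cells. In cells with 5000 to 6000 genes it was detected in 4 of 7, 2 of 6, 8 of 8 and 10 of 13 cells, and its means were 37.5, 8.85, 91.7 and 99.3 TPM in the same order, so that the cultures remained apart. A large part of the WT level lay in a single cell per culture, which held 49.2% of the summed TPM in WT1 and 47.95% in WT2, against 15.4% and 15.9% in the CTCF-KD cultures.

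Shmt1, the cytosolic hydroxymethyltransferase, occupies positions 60788104 to 60811718 of chromosome 11 (minus strand). Mean expression was 38.98 TPM in WT1, 5.87 in WT2, 149 in CTCF-KD1 and 154 in CTCF-KD2. The median cell was at 0 in both WT cultures, at 39.7 TPM in CTCF-KD1 and at 58.3 in CTCF-KD2, with highest cells at 624, 90.2, 694 and 507 TPM. Again the culture means did not overlap, but the WT cultures differed from each other as well. Shmt1 was seen in 296 recovered reads in WT1 and in 29 in WT2, and 1 cell held 66.7% of its summed TPM in WT1 and 66.8% in WT2. The ratio of means was accordingly 3.81 in experiment 1 and 26.2 in experiment 2, and the latter rests on few reads in WT2. The log2 difference was 3.20 (SE 0.83, adjusted p = 0.585 from limma), with 1.90 in experiment 1 and 4.50 in experiment 2, and was 1.93 without WT2. Detection was 7 of 24 and 5 of 23 cells in WT1 and WT2, and 17 and 20 of 24 cells in CTCF-KD1 and CTCF-KD2. Among cells with 5000 to 6000 genes, means were 26.2, 5.07, 123 and 188 TPM and did not overlap, whereas the share of cells with a value did, at 4 of 7 and 2 of 6 WT cells, 3 of 8 cells of CTCF-KD1 and 11 of 13 of CTCF-KD2. Exons of Shmt1 overlap those of Smcr8 on the opposite strand, and the use of strand in counting is not given in the sources used here. Smcr8 was at 13.96 and 7.61 TPM in WT1 and WT2, and at 6.05 and 8.30 TPM in CTCF-KD1 and CTCF-KD2.

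**Figure D1:**
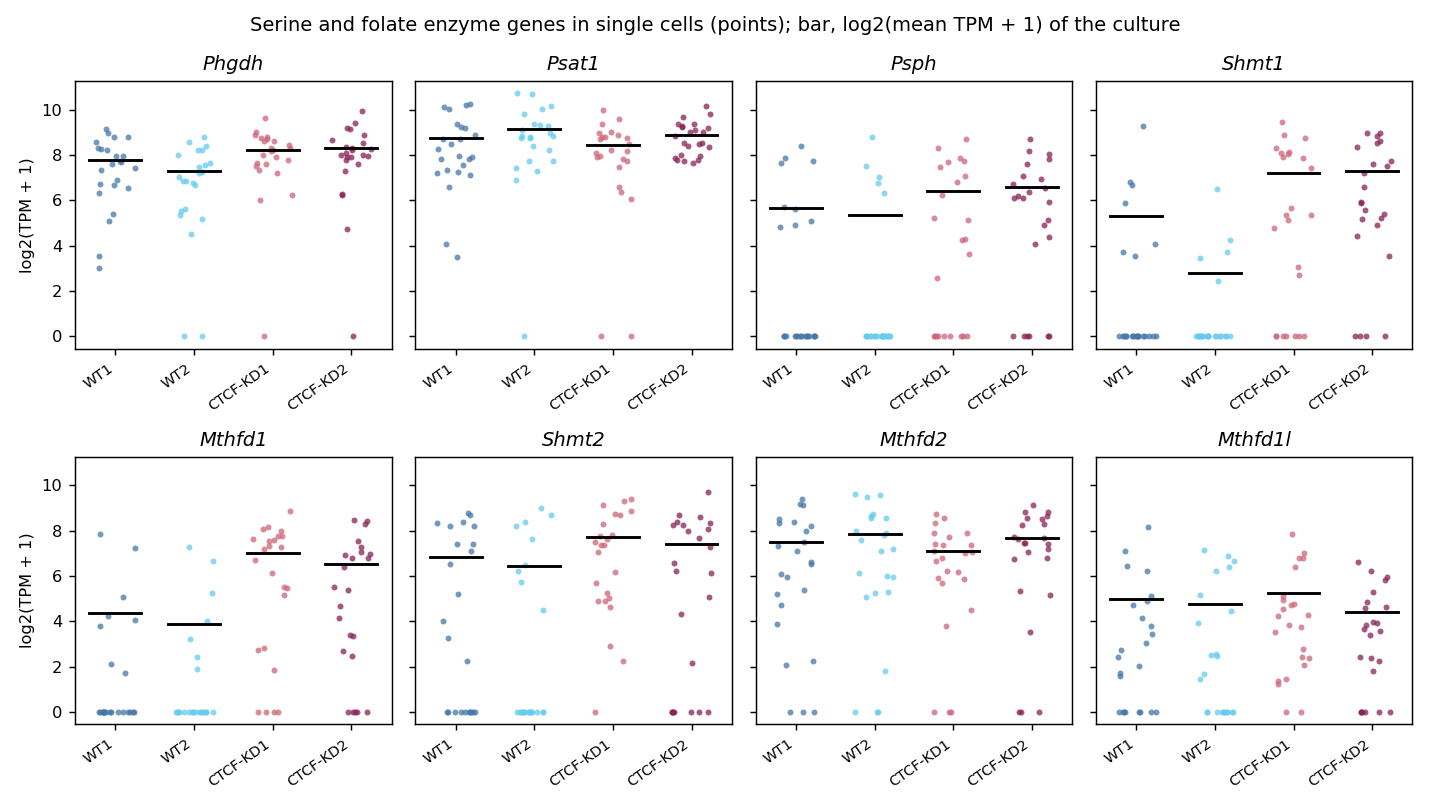
Each point is a cell, plotted by culture (x axis) at log2(TPM + 1) of the gene in the panel title (y axis), and each black bar is log2(mean TPM + 1) of the culture. Most WT cells of Shmt1 and Mthfd1 sit at 0, where 7 of 24 and 8 of 24 WT1 cells have a value, while Psat1 and Phgdh are seen in nearly all cells of every culture.

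The mitochondrial genes did not share the size of that difference. Shmt2, the mitochondrial hydroxymethyltransferase (chromosome 10, 127517123 to 127522444, minus strand), had means of 114 TPM in WT1, 86.1 in WT2, 211 in CTCF-KD1 and 169.7 in CTCF-KD2. The median cell was at 12.05 TPM in WT1, 0 in WT2, 164 in CTCF-KD1 and 84.5 in CTCF-KD2, and the highest cells were at 434, 510.3, 676 and 835 TPM. Both CTCF-KD means were above both WT means, with a log2 difference of 0.93 (SE 0.36, adjusted p = 0.629 from limma). Among cells with 5000 to 6000 genes, the Shmt2 means overlapped, at 116 and 135 TPM for WT against 138 and 109 TPM for CTCF-KD, and the log2 difference was -0.03. Ndufa4l2, whose exons overlap those of Shmt2 on the opposite strand, had a value in 1 cell only.

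Mthfd2, the mitochondrial dehydrogenase and cyclohydrolase that is induced in dividing cells (chromosome 6, 83305691 to 83325908, minus strand), had means of 179 TPM in WT1, 232 in WT2, 136 in CTCF-KD1 and 205 in CTCF-KD2. These means overlapped between the conditions, though each CTCF-KD culture was below the WT culture of its experiment. The log2 difference was -0.28 (SE 0.37, adjusted p = 0.885 from limma). It was detected in 21, 20, 21 and 21 cells of WT1, WT2, CTCF-KD1 and CTCF-KD2, a nearly equal share in every culture. In cells with 5000 to 6000 genes, its means were 339.7 and 349 TPM for WT against 147 and 259 TPM for CTCF-KD, with no overlap.

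Mthfd1l, the mitochondrial formate-producing synthetase (chromosome 10, 3973118 to 4167081, plus strand), was the lowest of the 8 genes in the CTCF-KD cultures. Its means were 30.7 TPM in WT1, 26.4 in WT2, 37.3 in CTCF-KD1 and 20.4 in CTCF-KD2. The mean of CTCF-KD1 was the highest and that of CTCF-KD2 the lowest, and the log2 difference was -0.04 (SE 0.59, adjusted p = 0.996 from limma). Detection followed another pattern than the mean, with 16 of 24 and 13 of 23 WT cells and 22 of 24 and 18 of 24 CTCF-KD cells. Highest cells were at 285 TPM in WT1, 142 in WT2, 229 in CTCF-KD1 and 95.95 in CTCF-KD2, so more CTCF-KD cells had a value and CTCF-KD2 lacked cells over 100 TPM. Among cells with 5000 to 6000 genes the Mthfd1l means did not overlap, at 42.99 and 37.2 TPM for WT and 22.1 and 17.6 TPM for CTCF-KD, and the log2 difference was -0.98. Aldh1l2, the mitochondrial enzyme that oxidizes the formyl group to carbon dioxide (chromosome 10, 83487450 to 83534140, minus strand), had a value in 1 CTCF-KD1 cell, at 21.5 TPM. With a value in 1 cell only, its number of reads cannot be recovered. It was at 0 in all other cells, which for 24 cells allows a share of up to 12.5% of cells with a read.

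**Figure D2:**
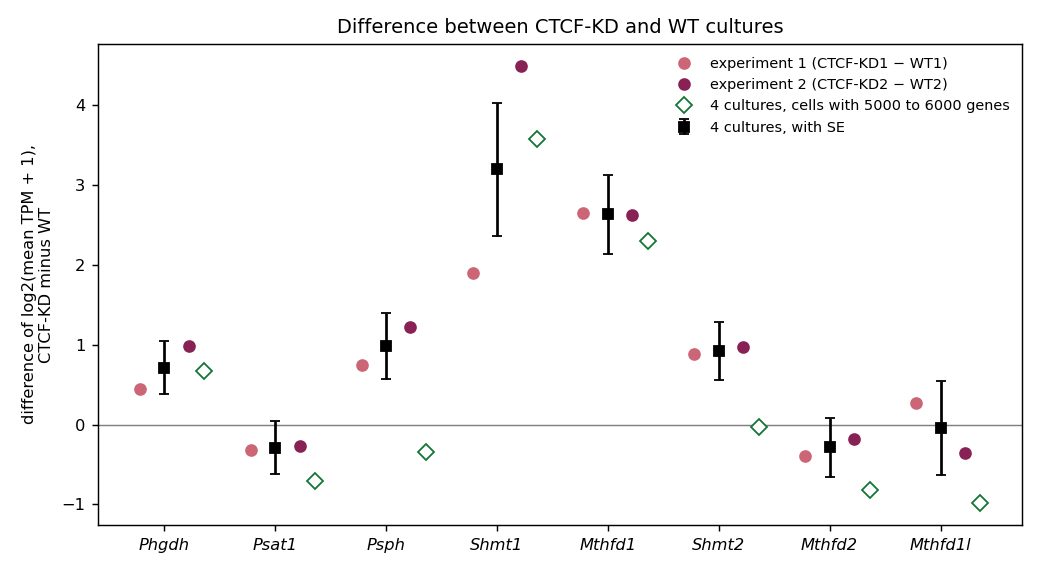
For each gene (x axis), the difference of log2(mean TPM + 1) between CTCF-KD and WT (y axis) is shown over the 4 cultures (black squares, bars are SE from limma), in each experiment (circles) and in cells with 5000 to 6000 genes (open diamonds). Mthfd1 and Shmt1 lie above 2 in the squares and diamonds, whereas Psph and Shmt2 lie near 1 in the squares and at -0.35 and -0.03 in the diamonds.

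Of the serine synthesis genes, Psat1 was the most abundant of all the enzyme genes and Psph the one seen in fewest cells. Phgdh, the first and committed step (chromosome 3, 98313170 to 98339990, minus strand), had means of 219 TPM in WT1, 158 in WT2, 298 in CTCF-KD1 and 315 in CTCF-KD2. Its median cell was at 199, 129, 296 and 263 TPM in the same order. Both CTCF-KD cultures were above both WT cultures, with ratios of 1.36 and 1.99 in experiments 1 and 2 and a log2 difference of 0.71 (SE 0.33, adjusted p = 0.680 from limma). The same order held in cells with 5000 to 6000 genes, at 241 and 191 TPM in WT and 355 and 332 TPM in CTCF-KD. A pseudogene, Phgdh-ps1, is annotated, and reads that both could give are uncertain.

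Psat1, the aminotransferase of the next step (chromosome 19, 15904678 to 15947337, minus strand), had means of 426 TPM in WT1, 571 in WT2, 342 in CTCF-KD1 and 474 in CTCF-KD2. The cultures overlapped, and the log2 difference was -0.29 (SE 0.33, adjusted p = 0.872 from limma). In CTCF-KD2 all 24 cells lay between 202 and 1151 TPM, a narrower range than in WT2, where cells lay between 0 and 1692 TPM. Experiment 1 did not share the absence of low cells in CTCF-KD. There 2 CTCF-KD1 cells were at 0 and the highest at 1001 TPM, while WT1 cells lay between 10.2 and 1222 TPM. When cells with 5000 to 6000 genes were taken, both CTCF-KD means (259.7 and 434 TPM) were below both WT means (657 and 461 TPM).

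Psph, the phosphatase that releases serine (chromosome 5, 129765558 to 129787449, minus strand), had means of 48.9 TPM in WT1, 40.5 in WT2, 83.1 in CTCF-KD1 and 95.5 in CTCF-KD2. It was detected in 9 of 24, 5 of 23, 15 of 24 and 18 of 24 cells. Both measures were higher in both CTCF-KD cultures, with a log2 difference in the mean of 0.99 (SE 0.42, adjusted p = 0.656 from limma). In cells with 5000 to 6000 genes, however, the means overlapped, at 96.8 and 116 TPM in WT and 56.2 and 122 TPM in CTCF-KD, and the log2 difference was -0.35. Exons of Psph overlap those of Cct6a on the opposite strand, which was in every cell at means from 607 to 829 TPM, so reads of the overlap cannot be told apart without strand.

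Across the conditions, the order of levels differed mainly in the place of the cytosolic genes. In the WT cultures the averages of the culture means ran from Psat1 (498 TPM) through Mthfd2 (206), Phgdh (189), Shmt2 (100.02), Psph (44.7), Mthfd1l (28.5) and Shmt1 (22.4) to Mthfd1 (16.7). In the CTCF-KD cultures they ran from Psat1 (408 TPM) through Phgdh (306), Shmt2 (190.2), Mthfd2 (171), Shmt1 (151), Mthfd1 (109) and Psph (89.3) to Mthfd1l (28.8). Among neighbours in the WT order, Mthfd2 and Phgdh overlapped between cultures, as did Shmt1 with both Mthfd1l and Mthfd1. In the CTCF-KD order, Mthfd2 overlapped with both Shmt2 and Shmt1, and Mthfd1 with Psph.

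Shmt1 and Mthfd1 together made up 15.3% of the summed mean TPM of the cytosolic and mitochondrial folate genes in WT1 and 5.45% in WT2, against 41.7% in CTCF-KD1 and 38.3% in CTCF-KD2. Over all cells, the mitochondrial sum was 324, 344, 385 and 395 TPM in WT1, WT2, CTCF-KD1 and CTCF-KD2, slightly higher in the CTCF-KD cultures. The cytosolic sum was 58.4, 19.8, 276 and 245 TPM. The cytosolic share in cells with 5000 to 6000 genes was 11.3%, 2.60%, 41.2% and 42.7% in the same order. The higher mitochondrial sum was not seen in those cells. There Mthfd2 (339.7 and 349 TPM for WT, 147 and 259 TPM for CTCF-KD) and Mthfd1l were lower in both CTCF-KD cultures, and Shmt2 overlapped. Neither cytosolic gene had a value in 12 of 24 WT1 cells and 13 of 23 WT2 cells, against 1 and 2 of 24 cells in CTCF-KD1 and CTCF-KD2. Both had a value in 3 and 2 cells of the WT cultures and in 14 and 17 cells of the CTCF-KD cultures. Among cells with 5000 to 6000 genes, both had a value in 3 of 7 WT1, 1 of 6 WT2, 3 of 8 CTCF-KD1 and 9 of 13 CTCF-KD2 cells, with overlap. Neither had a value in 2 of 7, 3 of 6, 0 of 8 and 1 of 13 of these cells, without overlap. Over all single cells the cytosolic share had a median of 1.06% in WT1, 0% in WT2, 39.03% in CTCF-KD1 and 38.6% in CTCF-KD2. Every culture held cells at 0%, and the highest cell was at 57.7% in WT2, 82.96% in CTCF-KD1 and 100% in the other cultures.

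**Figure D3:**
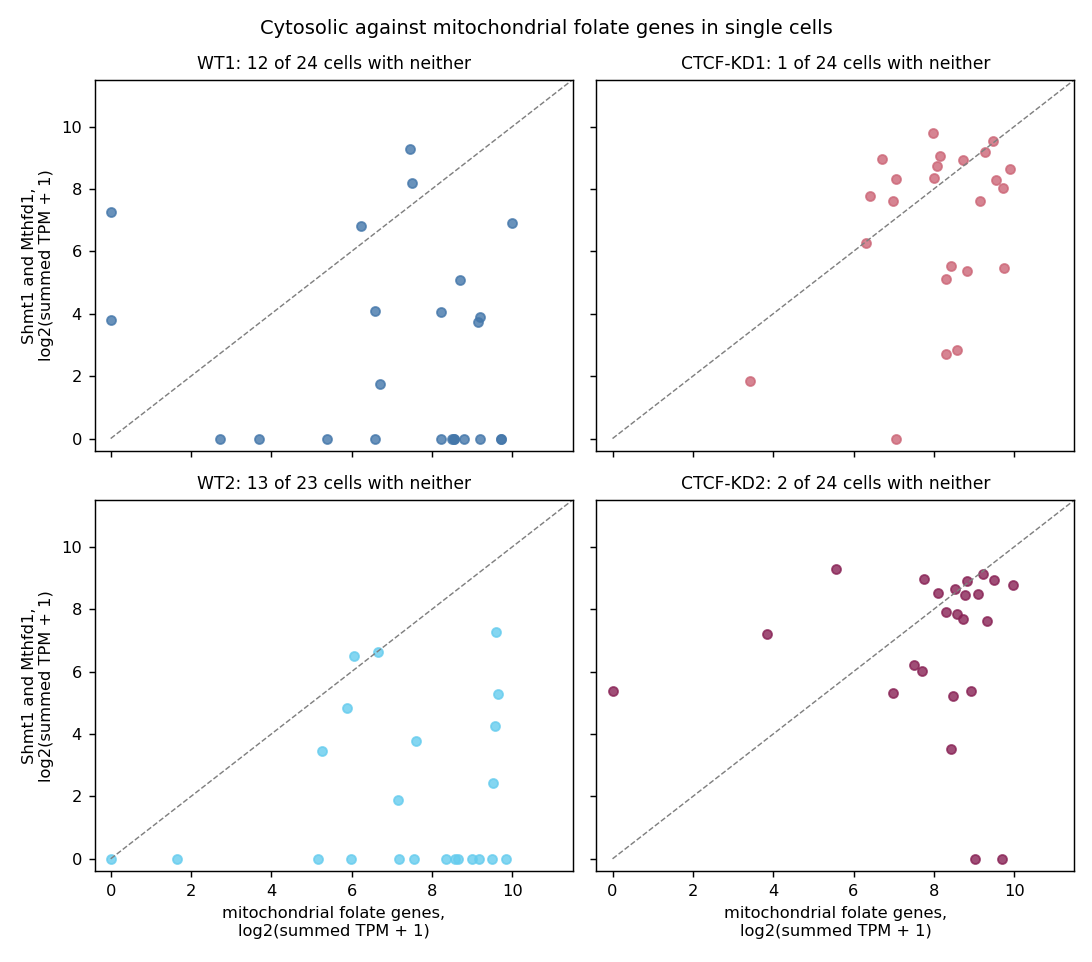
Each point is a cell, with log2 of the summed TPM + 1 of Shmt2, Mthfd2, Mthfd1l and Aldh1l2 on the x axis and of Shmt1 and Mthfd1 on the y axis, in 1 panel per culture, and the dashed line marks equal sums. The row of cells at 0 on the y axis holds 12 WT1 and 13 WT2 cells but 1 CTCF-KD1 and 2 CTCF-KD2 cells.

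Detection, the share of cells with a value above 0, was higher in both CTCF-KD cultures than in both WT cultures for 5 of the 8 genes at the full depth, against 36.2% of the genes tested. When cells were thinned to 80000 reads it was so for 7 of the 8 genes, all but Psat1, against 38.9%, and for 0 genes in the other direction, against 4.59%. At that equal depth the average share of cells was 57.8 percentage points higher in CTCF-KD for Shmt1, 50.996 for Mthfd1, 36.4 for Psph, 34.1 for Mthfd1l and 33.97 for Shmt2. It was 8.42 points higher for Mthfd2, 4.26 for Phgdh and 0.09 for Psat1. CTCF-KD cells also had more genes of any kind, and in cells with 5000 to 6000 genes the count was 3 of 8 (Psph, Mthfd1 and Mthfd1l), against 16.9% of the genes tested. By mean TPM in those cells, 3 of 8 were higher (Phgdh, Shmt1 and Mthfd1, against 17.9%) and 3 of 8 lower (Psat1, Mthfd2 and Mthfd1l, against 13.9%). The median cell held 5 of the 8 genes in both WT cultures and 7 in both CTCF-KD cultures, and all 8 were found in 0 WT cells and in 8 cells of each CTCF-KD culture. With 5000 to 6000 genes the median cell held 6 of the genes in WT1, 5 in WT2, 6.5 in CTCF-KD1 and 7 in CTCF-KD2.

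**Figure D4:**
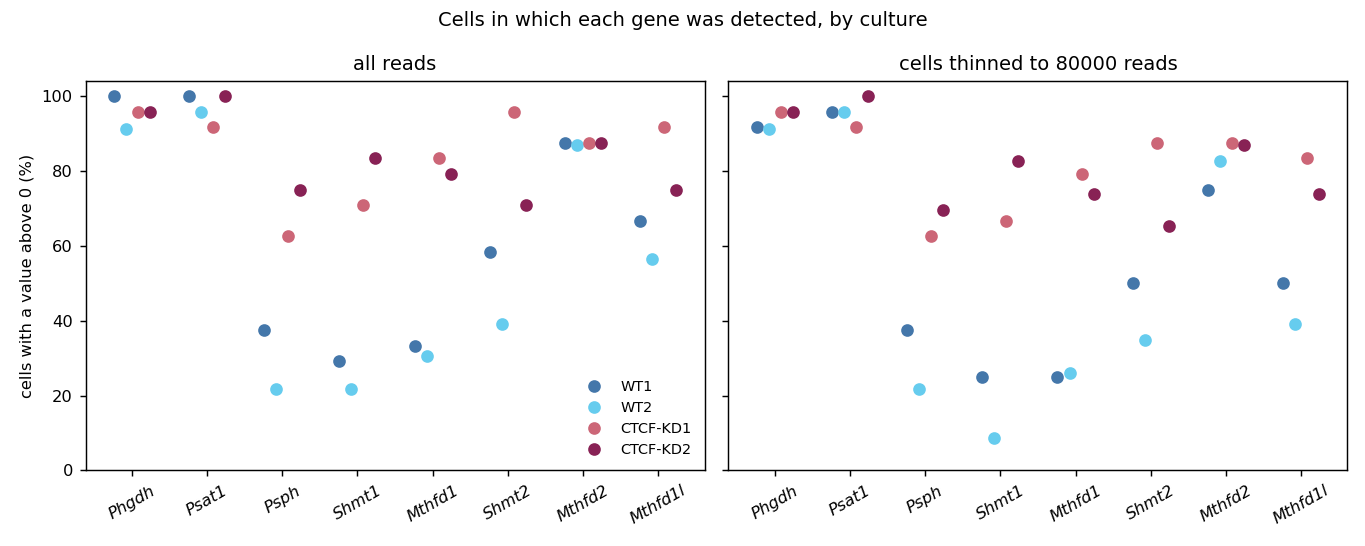
The share of cells with a value above 0 (y axis, percent) is plotted for each gene (x axis) and culture (colours), at the full depth (left) and after thinning to 80000 reads a cell (right). Psat1 and Phgdh are above 90% in every culture, and for Shmt1 and Mthfd1 the gap between WT and CTCF-KD cultures is as wide at equal depth, at 57.8 and 50.996 points.

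When log2(TPM + 1) was averaged over the cells of a culture, which weighs detection more than the mean TPM does, limma called 44 of 11980 genes higher in CTCF-KD, or 0.367%, and 2 lower. Shmt1 (log2 difference 3.93, SE 0.60) and Mthfd1 (3.63, SE 0.56) were among those called higher, each with an adjusted p = 0.0468 from limma. The other 6 genes were not called on this scale, with adjusted p-values from 0.112 for Psph to 0.931 for Psat1. The median of all genes was 0.23 on this scale and 0.04 on the main one, so both differences are to be read against that shift. Genes detected per cell move with them, and their part in these calls was not tested.

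Cell-to-cell variation was measured as the coefficient of variation (CV) of log2(TPM + 1), its SD divided by its mean in the pooled cells of a condition. By the rule of the study's methods, calls were made beyond 1 SD of the average CV difference of 7843 genes, at limits of -0.69 and 0.13. The CV was called decreased in CTCF-KD for 3 of the 8 enzyme genes, against 11.3% of genes, and increased for 0 of 8, against 7.68%. It was 1.88 in WT and 0.63 in CTCF-KD for Shmt1, 1.68 and 0.60 for Mthfd1, and 1.59 and 0.74 for Psph. Shmt1 and Mthfd1 were also called in each experiment alone, and Psph in experiment 2 only. Genes of higher mean have a lower CV on this scale, and the running median of genes of like mean was 1.74 in WT and 0.47 in CTCF-KD for Shmt1, and 1.67 and 0.49 for Mthfd1. With that median subtracted, 0 of the 8 genes were called. Phgdh and Psat1 were the most even genes, with a CV of 0.30 and 0.23 in WT and 0.25 and 0.24 in CTCF-KD.

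**Figure D5:**
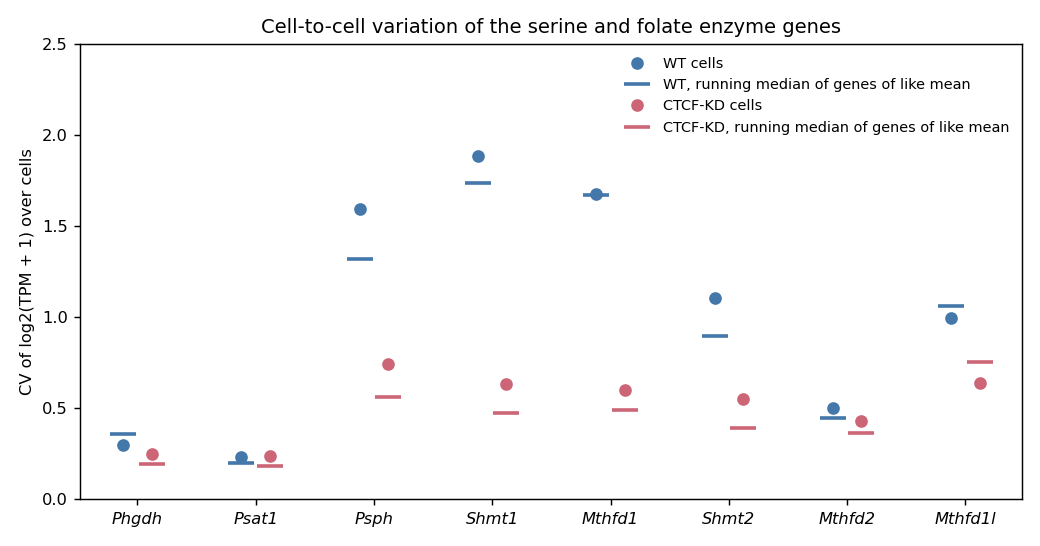
The CV of log2(TPM + 1) over pooled cells (y axis) is plotted for each gene (x axis) in WT and CTCF-KD cells (points), with the running median of genes of like mean in the same cells (dashes). The points of Shmt1 and Mthfd1 are at 1.88 and 1.68 in WT and at 0.63 and 0.60 in CTCF-KD, each near its dash.

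Genes that feed or use the one-carbon pool were described beside the enzymes, by lists fixed with earlier results of these data known. No gene of any list passed the limma test. Their counts stand beside the 19.9% of all genes tested that were higher in both CTCF-KD cultures and the 16.9% that were lower (17.9% and 13.9% in cells with 5000 to 6000 genes). Gart and Atic, the purine synthesis enzymes that use formyl folate, were both higher in both CTCF-KD cultures. Gart had means of 8.55 and 4.34 TPM for WT against 58.4 and 127 TPM for CTCF-KD, a log2 difference of 3.61 (SE 0.70, adjusted p = 0.585 from limma). Atic had means of 65.3 and 59.2 TPM in WT and 159.6 and 206 TPM in CTCF-KD, a log2 difference of 1.53 (SE 0.37, adjusted p = 0.585 from limma). Both genes stayed higher in cells with 5000 to 6000 genes, with log2 differences of 2.36 for Gart and 1.04 for Atic.

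Among 13 tested folate cofactor and glycine cleavage genes, 6 were higher in both CTCF-KD cultures and 1 lower, with a median log2 difference of 0.35, against 19.9% and 16.9% of all genes tested. With 5000 to 6000 genes per cell, the counts were 6 and 0. Fpgs, which adds the glutamate tail that keeps folate in the cell, had means of 2.83 and 0.18 TPM in WT and 55.3 and 26.02 TPM in CTCF-KD. Slc46a1, a folate transporter, was listed at 0 in every WT cell and had means of 4.13 and 11.8 TPM in CTCF-KD. At the other end were Gldc, the glycine decarboxylase (0.22 and 1.82 TPM in WT, 0 in CTCF-KD), and Mthfs (1.66, 7.91, 3.90 and 0.56 TPM in WT1, WT2, CTCF-KD1 and CTCF-KD2), both close to the limit of detection.

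Of 13 tested genes of serine transport and use, 2 were higher in both CTCF-KD cultures and 1 lower (median log2 difference 0.16), shares that do not exceed the 19.9% and 16.9% of all genes tested. Sfxn2, of a family of mitochondrial serine carriers, had means of 0 and 1.52 TPM in WT and 13.7 and 10.1 TPM in CTCF-KD, and Serinc2 had means of 13.7, 0, 67.5 and 10.2 TPM in WT1, WT2, CTCF-KD1 and CTCF-KD2, with overlap. The lowest statistics belonged to Sfxn3 (83.8 and 75.7 TPM in WT, 60.2 and 55.1 in CTCF-KD) and Serinc3 (73.1, 145, 78.5 and 89.2 TPM in the order above). In the methionine cycle and transsulfuration list, 1 of 9 tested genes was higher and 2 lower (median -0.24), also near the 19.9% and 16.9% of all genes. At 5000 to 6000 genes per cell, the counts higher and lower were 3 and 1 for the serine list and 2 and 3 for the methionine list. Sfxn3 changed direction in those cells and was among the serine genes counted as higher. Its means there were 70.3 TPM in WT1, 2.68 in WT2, 87.4 in CTCF-KD1 and 71.5 in CTCF-KD2. Mtap, which salvages methionine, had means of 56.6 and 98.4 TPM in WT and 101.4 and 188 TPM in CTCF-KD, and Mat2a 5.35, 15.6, 13.2 and 44.5 TPM. Lower in both CTCF-KD cultures were the relatives of the S-adenosylhomocysteine hydrolase gene, Ahcyl2 (131 and 163 TPM against 41.8 and 67.3) and Ahcyl1 (54.9 and 111 TPM against 27.4 and 50.7).

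Of 9 stress and growth regulators, 1 was higher in both CTCF-KD cultures and 4 were lower (median log2 difference -0.82), against 19.9% and 16.9% of all genes tested, and with 5000 to 6000 genes per cell 1 was higher and 3 were lower. Myc, a regulator of growth, was at 241 and 238 TPM in WT and 344 and 315 TPM in CTCF-KD, and Nrf1 at 23.7, 55.8, 41.1 and 38.97 TPM. Chac1 and Ddit3, both targets of the ATF4 response, had the lowest statistics, with Chac1 at 235 and 54.4 TPM in WT against 21.6 and 17.4 TPM in CTCF-KD, and Ddit3 at 437 and 121 against 69.7 and 30.02 TPM. Sesn2, also named after its values were seen, shared this order, at 51.7 and 39.3 TPM in WT against 29.3 and 0.52 TPM in CTCF-KD. In cells with 5000 to 6000 genes its means overlapped, at 60.1 and 0 TPM for WT and 31.9 and 0 TPM for CTCF-KD. Those of Ddit3 overlapped there too, at 574 and 125 TPM for WT and 148 and 29.6 TPM for CTCF-KD. Chac1 stayed lower there, at 38.9 and 56.7 TPM for WT and 7.33 and 10.7 TPM for CTCF-KD. Over all cells, the targets Asns and Trib3 did not share this order. Asns, named like Trib3 after its values were seen, had means of 2396, 2044, 1941 and 2584 TPM in WT1, WT2, CTCF-KD1 and CTCF-KD2, and Trib3 126, 5.51, 16.3 and 10.4 TPM, both with overlap. With 5000 to 6000 genes per cell, Asns was lower in both CTCF-KD cultures, at 3194 and 2929 TPM for WT and 1525 and 2846 TPM for CTCF-KD. Trib3 still overlapped there, at 294 and 5.62 TPM for WT and 41.2 and 8.56 TPM for CTCF-KD. Atf4 itself, also named after its values were seen, was at 434 and 472 TPM in WT and 252 and 259 TPM in CTCF-KD, a log2 difference of -0.82 (SE 0.29, adjusted p = 0.610 from limma). Over all cells, its lower level stood beside Phgdh above and Psat1 and Mthfd2 overlapping between the conditions. In cells with 5000 to 6000 genes, Atf4 was at 461 and 577 TPM for WT and 343 and 270 TPM for CTCF-KD. Psat1 and Mthfd2 were likewise lower in both CTCF-KD cultures there, and Phgdh was higher. A relation of Atf4 to these genes was not tested.

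Lists of cell cycle genes were described in the same way. Of 15 S phase genes, 8 were higher in both CTCF-KD cultures and 0 lower (median log2 difference 0.70), against 19.9% and 16.9% of all genes tested. Their summed means overlapped, at 1264 and 2566 TPM in WT and 2429 and 3095 TPM in CTCF-KD. Of 14 G2/M genes, 0 were higher and 6 lower, against the same shares, and the summed means overlapped too, at 1996 and 1919 TPM in WT and 1968 and 1371 TPM in CTCF-KD. At 5000 to 6000 genes per cell, 6 S phase genes were higher and 0 lower, and 0 G2/M genes were higher and 8 lower. Over cells within a culture, the mean of the S phase genes correlated with Mthfd1 at Pearson's r of 0.22 in WT1, 0.25 in WT2, 0.45 in CTCF-KD1 and 0.42 in CTCF-KD2. For Shmt1, r was 0.33, 0.01, 0.24 and 0.58 in the same cells. These are descriptions over 23 or 24 cells, which share library and depth, and the part of the cell cycle in the differences of the enzyme genes was not tested.

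Among 7815 genes, those whose log2(TPM + 1) followed the mean of the standardized enzyme genes most closely over cells, with r taken within each culture and averaged over the 4 cultures, were Rfc4 (0.56), Ybx3 (0.53), Uqcrc2 (0.53), Ddx52 (0.52) and Immt (0.50). The median gene had an r of 0.10. The number of genes detected in a cell had an averaged r of 0.52 with the same mean. It was 0.23 in WT1, 0.64 in WT2, 0.41 in CTCF-KD1 and 0.82 in CTCF-KD2. Cells with more genes thus tended to have more of these enzymes, least so in WT1.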

How the data were processed

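The data are single-cell RNA-seq of 96 EL4 cells from 4 cultures. The authors aligned reads to GRCm38 with STAR, counted uniquely mapped reads per gene and deposited the values as TPM, without a filter on cells. Every column was mapped to its sample by name. Here, cells with fewer than 3000 genes were left out (1 cell) and genes were kept when 2 or more cells had a log2(TPM + 1) above 1. Expression per culture was log2(mean TPM + 1), with a pseudocount of 1 TPM, which understates changes of low genes. It was tested with limma 3.58.1 (trend, two-sided, Benjamini-Hochberg over 11980 genes) in R 4.3.3, and values were computed in Python 3.11.15. The study's expression tool works on counts of single cells, but cells of a culture are not replicates, so no count model was fitted.

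Whole reads were recovered from the TPM steps, for thinning to 80000 reads (1 cell was too shallow) and for RPM. Steps were sought so that values came out whole. That 100% of values lay within 0.001 of a whole number follows largely from that search and is no check of the counts. Per cell the recovered reads had a median of 247586 in WT1, 230477 in WT2, 234260 in CTCF-KD1 and 131098 in CTCF-KD2. The step taken as 1 read is the largest that divides every value of a gene. For genes seen in few cells it can hold more than 1 read. No molecular identifiers are described, so intervals and limits cover counting error only. P-values measure the spread between these cultures, which may be technical.

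The culture number pairs the samples, since the study's methods give it as the experiment. Deviations of same-numbered cultures correlated at 0.175 over 11980 genes. Genes named are every enzyme gene, Ctcf, the 2 highest and 2 lowest limma statistics in each pathway list, and the 5 genes most alike. Atf4, Asns, Trib3 and Sesn2, and the genes that overlap an enzyme gene, were added after their values were seen. The enzymes and all lists were chosen with earlier results of these data known. Positions are from GENCODE M21, and 8 of the 9 genes had a RefSeq promoter. The scripts were tested on simulated data. Alternatives covered the culture value, pseudocount, gene and cell filters, scaling, the pairing, each culture left out, and the CV rule, and the comparison of cells with 5000 to 6000 genes, for the enzymes and the lists, was added after seeing the data.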

Additional observations from a re-analysis of the deposited data

Results flagged for a closer look

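Mthfd1l and Ctcf had opposite directions in the experiments, and the difference between the experiments was not tested. The log2 difference of Mthfd1l was 0.27 in experiment 1 and -0.35 in experiment 2. That of Ctcf, the targeted gene, was -1.85 in experiment 1 and 0.27 in experiment 2.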

How the results depend on the processing

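With 2 cultures per condition and a culture on each circuit, these data limit every comparison to culture means. CTCF-KD2 had the fewest reads and WT2 few reads of Shmt1 and Mthfd1. The log2 differences of the 8 genes kept their direction and side of the threshold in 110 of 120 alternatives, 8 changed direction and 2 passed the threshold. Other gene filters and the replicate block leave the log2 differences as they are by construction, so only the adjusted p could move in those alternatives. Those of Mthfd1 (2.15 to 3.63), Shmt1 (1.93 to 4.47), Phgdh (0.48 to 0.95) and Psat1 (-0.71 to -0.06) changed direction in none of them.

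With the replicate block, the pairing of cultures by experiment, no call changed. The log2 differences are the same there by construction, at 2.64 for Mthfd1 (adjusted p = 0.210 from limma) and 3.20 for Shmt1 (adjusted p = 0.245 from limma). On the mean of log2(TPM + 1), 44 genes were called higher and 2 lower instead of 0 and 0, among them Shmt1 (3.93) and Mthfd1 (3.63), and Mthfd2 (0.21) and Mthfd1l (0.83) changed direction. Mthfd1l was also at 0.18 in thinned RPM. With 1 culture left out, Mthfd1l ranged from -0.46 without CTCF-KD1 to 0.38 without CTCF-KD2 (0.06 without WT1), and Mthfd2 from -0.58 without CTCF-KD2 to 0.0101 without CTCF-KD1. Shmt1 was at 1.93 without WT2 and 4.47 without WT1. In RPM of recovered reads 1 gene, Mthfd2, was lower in both CTCF-KD cultures, and in thinned RPM 2 were, Psat1 and Mthfd2. In cells with 5000 to 6000 genes, 3 genes were higher and 3 lower instead of 5 and 0, Psph (-0.35) and Shmt2 (-0.029) changed direction, and 3 instead of 5 were detected in a larger share of both CTCF-KD cultures. The cause was not tested.

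For CV, 602 genes were called increased and 890 decreased, 3 of them enzyme genes. Beyond 2 SD these were 75, 285 and 1, with Psph (-0.85) and Mthfd1 (-1.08) no longer called. With a pseudocount of 10, 1021 genes were increased and 1 enzyme gene was decreased, Shmt2 (-0.11), and Shmt1 (0.016) and Mthfd1 (0.0105) changed direction. Less the CV expected from the mean, 0 enzyme genes were called, with Shmt1 at 0.013 and Mthfd1 at 0.10. In cells with 5000 to 6000 genes 1 was called, Mthfd1, and with CTCF-KD2 left out of the pooled CV, Psph (-0.71) was no longer called. The cause was not tested.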

Other observations

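Among the 28 pairs of the 8 tested enzyme genes, Pearson's r over cells, taken within each culture and averaged over the 4, had a median of 0.16 and ran from -0.07 for Psph with Mthfd1 to 0.34 for Psph with Mthfd2. In 6 pairs r was above 0 in every culture. Phgdh and Psat1, neighbours in serine synthesis, had an r of 0.50 in WT1 and 0.67 in CTCF-KD1 but -0.07 in WT2 and -0.02 in CTCF-KD2. Ctcf had an averaged r between -0.03 (Psat1) and 0.16 (Shmt1 and Mthfd2) with the enzyme genes. Within single cultures it ran from -0.44 (Psat1 in CTCF-KD2) to 0.57 (Shmt2 in WT2). These values describe 23 or 24 cells per culture, and weak correlations in sparse values are no finding.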
